A study of Apis mellifera with 18 samples.

Results

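The honey bee genes Obp13 to Obp21 encode odorant-binding proteins, and all transcripts carrying one of these 9 symbols in RefSeq, matched without regard to case, were taken from the deposited counts. The rule found 9 transcripts of 8 genes among 28396 transcripts: 1 each for Obp13, Obp14, Obp15, Obp16, Obp17, Obp18 and Obp21, and 2 for Obp19. Obp20 matched no transcript and was not analysed here. The RefSeq table lists the 8 genes next to each other on linkage group 15, with 0 other genes between the first and the last of them. Of the 9 transcripts, 5 passed the filter on low counts and were tested between tissues (Obp13, Obp14, Obp17, Obp18 and Obp21). The other 4, of Obp15, Obp16 and Obp19, were described without a test.

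Odorant-binding proteins are small soluble proteins that are secreted into extracellular fluid and hold hydrophobic molecules in an internal pocket. In insect antennae they carry odorants and pheromones through the fluid around the sensory neurons towards the receptors. Several members of the family are also made outside the antennae, where what they carry is mostly unknown. Obp14 to Obp21 belong to the C-minus class, which lacks a conserved pair of cysteines of the classic proteins, whereas Obp13 keeps it. The protein of Obp14 binds plant volatiles such as eugenol in vitro, and the proteins of Obp16 and Obp18 have been studied in the antennae of hygienic workers.

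The study sequenced RNA of worker honey bees from 1 colony to ask how patrilines, the groups of workers that share a father, differ after exposure to the neonicotinoid insecticide clothianidin. The 18 libraries covered the brain, the Malpighian tubules, which are excretory organs opening into the gut, and the ventriculus, the midgut in which food is digested. Each library held 1 tissue of 1 pool of 5 workers, with 6 patrilines per tissue (P1, P7, P8, P11, P21 and P24), and each patriline's 3 tissues were dissected from the same 5 workers. Every worker was 8 days old, had been fed clothianidin at 4.27 ppb and was frozen 24 h later. Unexposed workers were not analysed here, so exposure is shared by all groups. The labels give the tissue and the patriline, and the tissues were the groups compared, with n = 6 pools each. A patriline had 1 pool in each tissue, so differences between patrilines were described and not tested.

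Between 39722329 and 87946924 fragments were counted per library. At this depth 3 counts, taken as the limit that a count of 0 allows, equalled 0.0327 to 0.09 CPM, the count relative to library size. Library sizes were scaled with edgeR's TMM factors for all levels, and these limits cover counting error only. Nerve markers summed to 385 to 889 CPM in the brain pools, 15.8 to 114 CPM in the tubule pools and 24.8 to 38.5 CPM in the ventriculus pools, with 16 of 20 listed genes matched. The genes CYP9Q1 and CYP9Q2 summed to 4064 CPM in the P21 brain pool and 971 to 1319 CPM in the other brain pools, 16048 to 31573 CPM in the tubules and 11313 to 25960 CPM in the ventriculus.

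Several libraries stood apart in genes of other tissues. In the brain pools of P11 and P21, the 10 hypopharyngeal gland genes (the royal jelly protein genes and Hbg3, from a gland in the head) summed to 244310 and 156296 CPM, against 5294 to 23598 CPM in the other 4. The 4 opsin genes of photoreceptors summed to 8344 CPM in the P11 brain pool and 3665 CPM in that of P21, and to 328 to 817 CPM in the other 4. The 5 fat body genes (vitellogenin and the hexamerins) summed to 591 and 500 CPM in the P11 and P21 brain pools, against 29.5 to 53.3 CPM. The sum of nerve markers was lowest in these same brain pools, at 457 CPM in P11 and 385 CPM in P21. It was low there mainly through nAChRa1, nAChRb1, Dop1, Oa1 and TyrR, and other genes of the list had another order. In the brain nAChRa9 was highest in P11 and P21 (12.7 and 12.6 CPM, against 7.76 to 9.66 CPM) and Syt1 in P11 (1.51 CPM). The P21 tubule pool had the highest sums of hypopharyngeal gland genes, at 11069 CPM against 1757 CPM in P11 and at most 456 CPM in the others, and of nerve markers, at 114 CPM. Of the nerve list, nAChRa9 (22.3 CPM) and nAChRb2 (9.92 CPM) were highest in the P11 tubule pool. The P11 tubule and ventriculus pools had the highest fat body sums of their tissues, at 2012 and 679 CPM, with the next pools at 1231 CPM (P8) and 498 CPM (P1). Venom gland genes summed to 15151 CPM in the P7 and 453 CPM in the P11 ventriculus pool, with the other 4 between 0.923 and 2.93 CPM. They summed to 545 CPM in the P11 and 465 CPM in the P7 tubule pool, with the other 4 between 5.15 and 31.9 CPM. P11 was thus high in venom gland genes in both of these tissues, as was P7, and the P21 brain pool had 25.4 CPM against at most 2.41 CPM in the other brain pools. The P21 brain sum came from Melt (24.5 CPM), whereas Pla2, at 0.841 CPM, lay within the 0.642 to 1.57 CPM of the other brain pools. How much these other tissues contributed to the levels of the odorant-binding protein genes was not tested.

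The odorant-binding protein genes were mostly high in P11, and in P21 mainly in the brain and the tubules. The highest pool was P11 or P21 in 26 of the 27 combinations of transcript and tissue, P11 in 14 and P21 in 12. The exception was Obp13 in the ventriculus, where P1 was highest. P11 and P21 were the 2 highest pools for 9 of 9 transcripts in the brain, 6 in the tubules and 3 in the ventriculus. In the ventriculus P11 was highest for the 8 transcripts other than that of Obp13. P21 was the lowest ventriculus pool for Obp14 (1.56 CPM) and Obp17 (1.08 CPM). Among all 10209 transcripts tested, the highest pool was P11 or P21 for 39.7% in the brain, 41.2% in the tubules and 39.2% in the ventriculus. Since 4 of the 9 transcripts were not among those tested, the shares were also taken over transcripts with at least 15 counts in all and a count in the tissue, a set that holds each of the 9, and were 38.8%, 41.7% and 38.8%. The combination of Obp19's second transcript with the tubules rests on 4 counts in all.

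**Figure D1:**
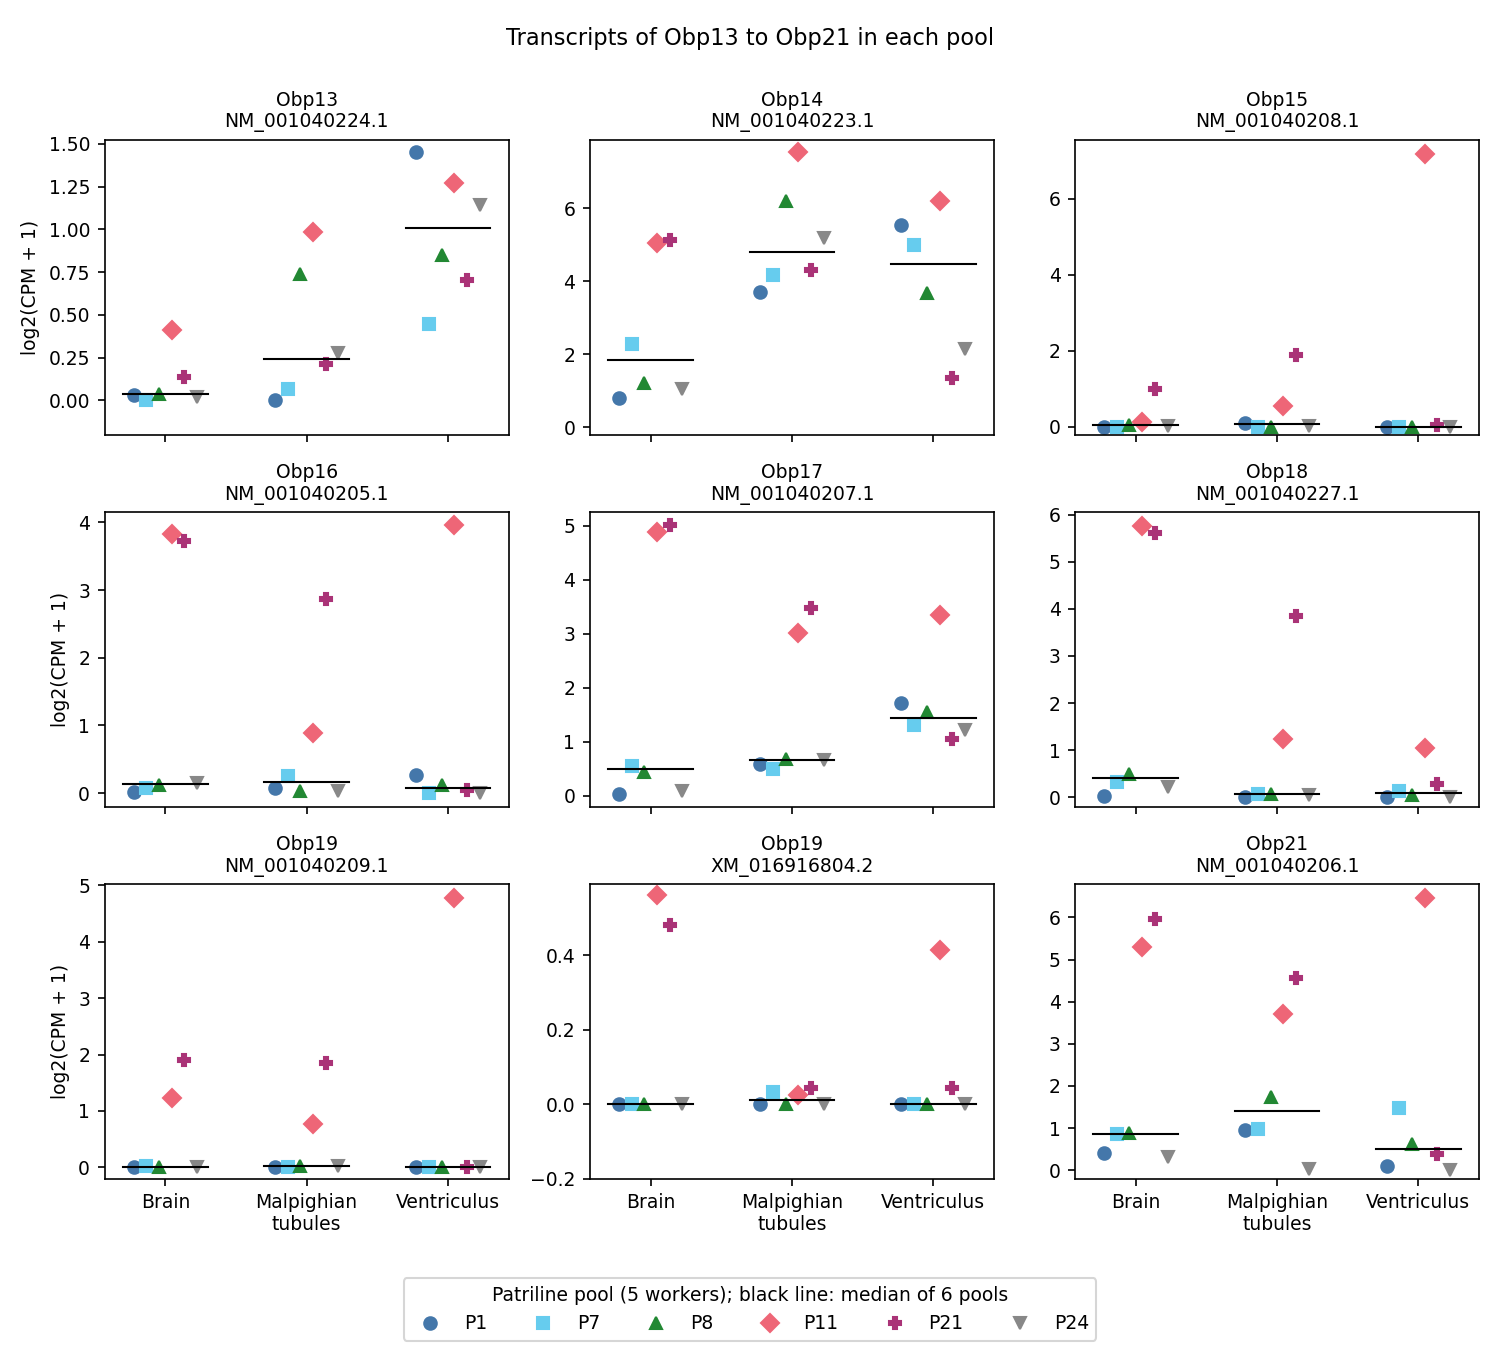
Levels of the 9 transcripts of Obp13 to Obp21 as log2(CPM + 1), 1 panel per transcript, with brain, Malpighian tubules and ventriculus from left to right, a marker for each patriline pool of 5 workers and a black line at the median of 6 pools. P11 and P21 stand above the other brain pools in 9 of 9 panels, and P11 is highest in the ventriculus in 8 of 9.

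Obp18, of which the brain held the highest median, showed the contrast most clearly. Its brain level was 53.5 CPM in P11 and 48.2 CPM in P21, and 0.0218, 0.256, 0.406 and 0.162 CPM in P1, P7, P8 and P24. In the tubules it was 13.5 CPM in P21 and 1.36 CPM in P11, with 0 counts in P1 and 2 counts in each of P7, P8 and P24. In the ventriculus it was 1.05 CPM in P11 and 0.210 CPM in P21, with 3 counts or fewer in each of the others. P11 and P21 were thus the 2 highest pools in all 3 tissues, P21 leading in the tubules and P11 in the ventriculus. The lower of the P11 and P21 brain pools was 119-fold above the highest other brain pool.

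Obp17 and Obp21 followed the same order in the brain and the tubules. Obp17 had 28.5 and 31.0 CPM in the P11 and P21 brain pools, whereas the other 4 had 0.0218 to 0.472 CPM. Tubule levels of Obp17 were 7.12 and 10.1 CPM in P11 and P21 and 0.418 to 0.604 CPM elsewhere. In the ventriculus Obp17 had 9.19 CPM in P11, and the others, P21 included, lay between 1.08 and 2.27 CPM. It was the only one of these 3 genes with more than 1 CPM in every ventriculus pool. Obp21 had 38.2 and 61.4 CPM in the P11 and P21 brain pools, whereas the other 4 had 0.237 to 0.840 CPM. Tubule levels of Obp21 were 12.1 and 22.6 CPM in P11 and P21 and 0.0192 to 2.33 CPM elsewhere. In the ventriculus it had 87.5 CPM in P11 and at most 1.80 CPM in the others, of which P24 had 0 counts. The P21 ventriculus pool, at 0.300 CPM, was below those of P7 and P8, unlike the brain and tubule pools of the same workers.

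Obp16 had 13.3 CPM in the P11 brain pool and 12.2 CPM in that of P21, and the other 4 had 0.0109 to 0.112 CPM, a gap of 109-fold from the lower of the 2. The tubule level of Obp16 was 6.29 CPM in P21, 0.857 CPM in P11 and at most 0.186 CPM elsewhere. In the ventriculus it had 14.5 CPM in P11 and at most 0.202 CPM elsewhere, with 0 counts in P7 and P24. Obp16 reached 10 counts in 5 libraries, all of them from P11 or P21, which was too few for the filter.

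Most counts of Obp15 and of the first transcript of Obp19 came from the P11 ventriculus pool. Obp15 had 5196 counts in the P11 ventriculus pool, or 143.9 CPM, against 1 count in P21 and 0 counts in each of the other 4. Its brain and tubule levels were low, with maxima of 0.989 CPM in the P21 brain pool and 2.69 CPM in the P21 tubule pool. The first transcript of Obp19 had 957 counts (26.5 CPM) in the P11 ventriculus pool and 0 counts in the other 5. In the brain this transcript had 1.34 CPM in P11, 2.75 CPM in P21 and at most 1 count in each of the others. Tubule pools of P11 and P21 had 0.700 and 2.59 CPM of it, and the others at most 1 count. The second transcript of Obp19 reached 0.477 and 0.396 CPM in the P11 and P21 brain pools and 0.332 CPM in the P11 ventriculus pool. Fragments that both Obp19 transcripts share go to the ambiguous class of the counter, so the split between them is uncertain.

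Obp14 had at least 52 counts in every library. Its brain level was 31.8 CPM in P11 and 34.3 CPM in P21, and 0.729 to 3.86 CPM in the other pools, a gap of 8.25-fold. Its tubule levels were 12.0, 17.2, 72.8, 184, 18.8 and 35.1 CPM in P1, P7, P8, P11, P21 and P24, so that P8 followed P11 and P21 lay among the low pools. In the ventriculus it had 45.9, 30.6, 11.8, 72.0, 1.56 and 3.43 CPM in the same order of patrilines, and P21 was the lowest pool. P11 was therefore high for Obp14 in all 3 tissues and P21 in the brain alone.

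Obp13 followed another order. In the brain it had 29 counts over the 6 pools, with 0.330 CPM in P11 and at most 0.0989 CPM in the others. Its tubule level lay between 0 counts in P1 and 0.98 CPM in P11, with 0.669 CPM in P8. In the ventriculus it had 1.73, 0.360, 0.803, 1.41, 0.630 and 1.21 CPM in P1, P7, P8, P11, P21 and P24. Obp13 was the one gene of the cluster whose 6 brain pools all lay below its 6 ventriculus pools after TMM scaling. The nearest were the P11 brain pool (0.330 CPM, 18 counts) and the P7 ventriculus pool (0.360 CPM, 12 counts), a margin within counting error.

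Counted over the cluster, the brain pools of P11 and P21 were each at least 4-fold above every other brain pool for 7 of 9 transcripts, all but those of Obp13 and Obp15. For this count a pool with fewer than 3 counts was set to the level of 3 counts. Of all 10209 tested transcripts, 1.42% met the same criterion. Obp16 and both Obp19 transcripts are not among these 10209, and among the 12892 transcripts with at least 15 counts, which include each of the 9, the share was 1.21%. In the tubules P11 and P21 were each at least 4-fold above every other pool for 6 of 9 transcripts (Obp15, Obp16, Obp17, Obp18, the first of Obp19 and Obp21), against 0.313% of tested transcripts and 0.279% of those with at least 15 counts. P21 was at least 4-fold above every other tubule pool, P11 included, for 3 of 9 (Obp15, Obp16 and Obp18), against 3.78% and 3.02%. In the ventriculus P11 was at least 4-fold above every other pool for 6 of 9 (the same 6 genes), against 0.411% and 0.403%. The criteria were written after the pools had been seen, and no test was made of them.

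Of the 3 genes listed on either side of the cluster, LOC725811 had at most 1 count in any brain pool and could not be compared. For LOC551525, LOC100577418, LOC726435, LOC725717 and the most counted transcript of LOC551984, the lower of the P11 and P21 brain pools stood at 0.698 to 1.37 times the highest other brain pool. Among the 5 genes Obp14, Obp16, Obp17, Obp18 and Obp21 of the cluster that ratio ran between 8.25 and 119, and it was 2.35 for Obp13 and 2.18 for Obp15, nearer to that of the neighbours. No transcript length was at hand, so levels were not compared between genes.

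**Figure D2:**
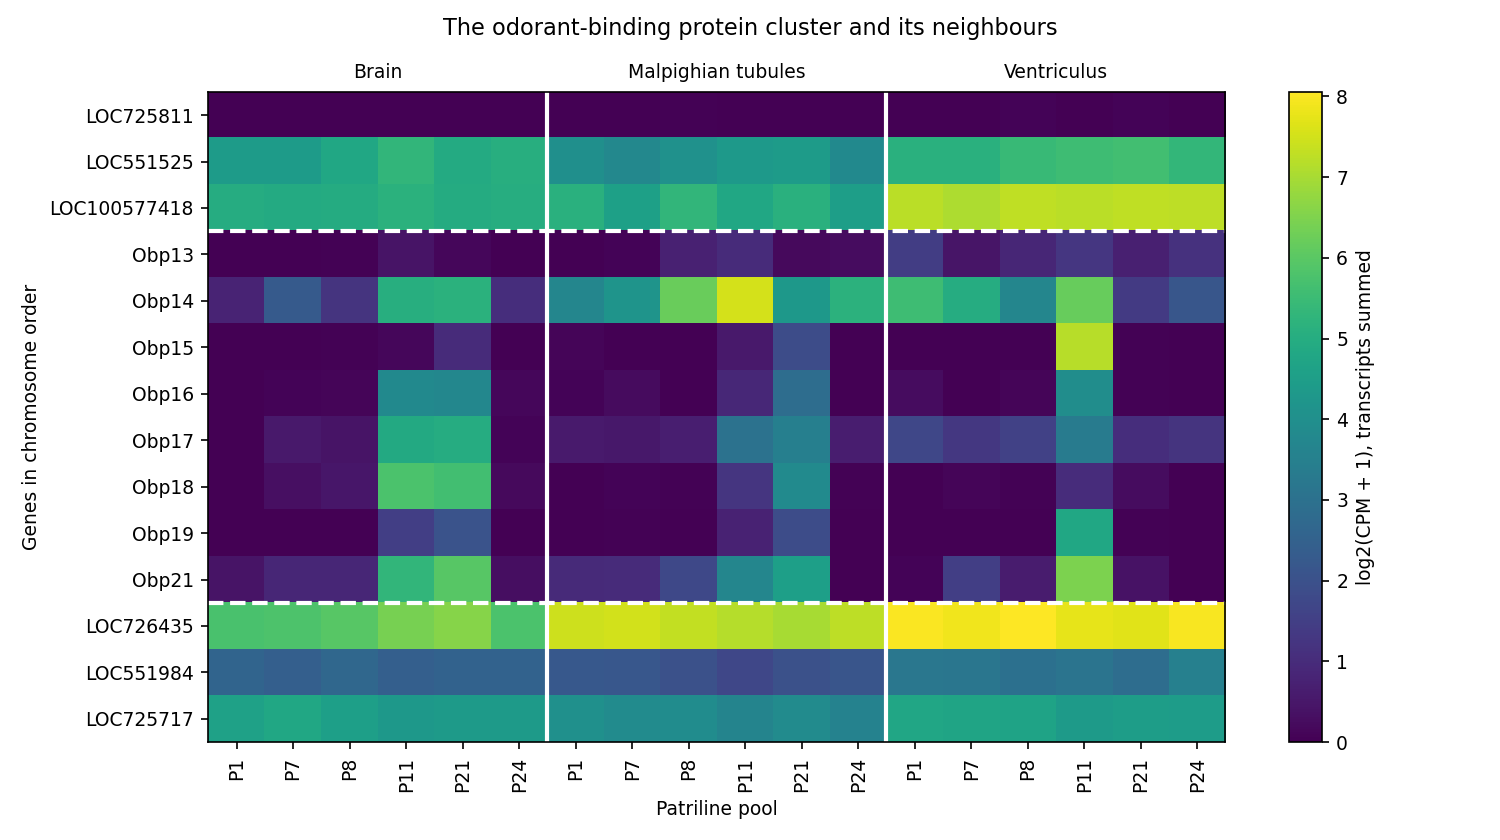
Levels of Obp13 to Obp21 and of 3 genes on each side in chromosome order (rows, dashed lines at the borders of the cluster) in each patriline pool of brain, Malpighian tubules and ventriculus (columns), as log2(CPM + 1) with transcripts summed per gene. The P11 and P21 brain columns and the P11 ventriculus column are brighter inside the dashed lines than the other brain and ventriculus columns, except in Obp13 and, in the brain, Obp15.

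The genes of the cluster fell into subsets by how their levels moved together over the 18 libraries, which share workers and dissections, so that the correlations of log2(CPM + 1) are descriptions. Obp17, Obp18 and Obp21 went together, with r of 0.889 for Obp17 with Obp18, 0.894 for Obp17 with Obp21 and 0.798 for Obp18 with Obp21. Obp14 was less close to these 3, with r between 0.284 and 0.558, and Obp13 was the farthest from them, between −0.159 and 0.248. After subtraction of each tissue's mean, r was 0.956 for Obp17 with Obp18 and 0.412 for Obp13 with Obp17.

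Obp14 followed Hex70a and Vg, 2 of the 5 fat body genes. Hex70a encodes a hexamerin, a storage protein that the fat body secretes into the hemolymph. Hex70a was at 281 and 224 CPM in the P11 and P21 brain pools, against 10.5 to 22.2 CPM in the other 4. In the tubules it was highest in P11 (1183 CPM) and P8 (644 CPM), with P21 at 137 CPM, and in the ventriculus it was lowest in P21 (85.3 CPM) and highest in P11 (523 CPM). The pools with high and low Hex70a were thus the pools with high and low Obp14. Their correlation was 0.937 over 18 libraries, and 0.991 in the brain, 0.991 in the tubules and 0.971 in the ventriculus over 6 pools each. Over 18 libraries the correlation of Obp14 was 0.931 with Vg, the yolk protein precursor, 0.628 with Hex110, 0.281 with Hex70c and −0.33 with HEX70b. The last 2 hexamerin genes therefore did not share its order, and HEX70b was lowest of the brain pools in P11 (7.54 CPM) and highest of the ventriculus pools in P21 (27.3 CPM). The part of fat body RNA in the Obp14 level was not tested.

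Obp18 did not follow Hex70a in the tubules, where r was −0.07, and followed the hypopharyngeal gland sum there, with r of 0.985 over 6 pools. That sum was highest in the P21 tubule pool mainly through Mrjp1 (8024 CPM), Mrjp3 (1674 CPM), Hbg3 (684 CPM) and Mrjp5 (344 CPM). Mrjp4, Mrjp7, Mrjp8 and Mrjp9 were not highest in that pool, and Mrjp8 was lowest there (89.9 CPM). In the brain the r of Obp18 was 0.946 with the hypopharyngeal gland sum and 0.988 with Hex70a, since P11 and P21 were high in both. The P8 brain pool had 23598 CPM of hypopharyngeal gland genes and 0.406 CPM of Obp18. Antennal markers gave another order: Obp1, Obp2, Or2 (the odorant receptor coreceptor) and Or11 summed to 2.88 and 2.18 CPM in the P11 and P21 brain pools, against 3.54 to 4.84 CPM in the other 4, and Or2 was at most 0.0574 CPM in any library. The low sums came from Or11, at 1.32 and 1.35 CPM in P11 and P21 against 2.21 to 3.93 CPM in the others. Obp2 was highest in the P11 brain pool (0.532 CPM, against 0.142 to 0.266 CPM in the other 5), and Obp1 was second highest there (1.01 CPM) and lowest in P21 (0.511 CPM). The members of this list thus differed in order, and the part of antennal RNA in these pools was not tested.

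**Figure D3:**
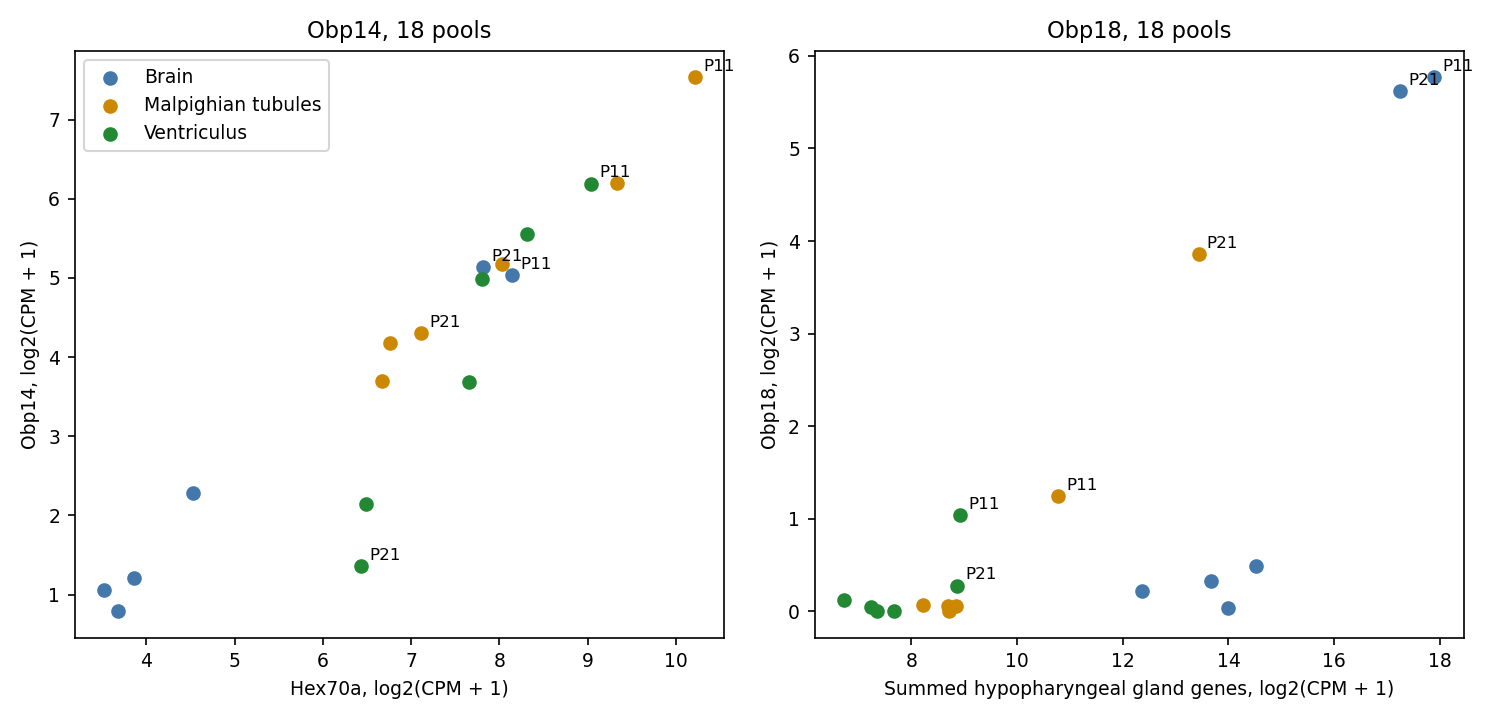
Left, Obp14 against Hex70a, and right, Obp18 against the sum of 10 hypopharyngeal gland genes, both as log2(CPM + 1), with 1 point for each of 18 pools coloured by tissue and the pools of P11 and P21 named. Obp14 and Hex70a lie along 1 line over the 3 tissues (r = 0.937), whereas Obp18 is high only in the P11 and P21 brain pools and the P21 tubule pool.

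In the P21 tubule pool the genes of the cluster stood at differing shares of their levels in the P21 brain pool. The share was 28.0% for Obp18, 32.4% for Obp17, 36.8% for Obp21, 51.4% for Obp16, 94.2% for the first transcript of Obp19 and 272% for Obp15. It was 54.8% for Obp14, 159% for Obp13 and 7.94% for the second transcript of Obp19, the last 2 from 10 and 2 counts in the tubule pool. The same share was 58.0% for the fat body genes, 46.2% for the venom gland genes and 32.5% for the antennal markers. It was 29.5% for the nerve markers, 24.2% for the opsins and 7.08% for the hypopharyngeal gland genes. Some of these levels were shared by other tubule pools, where the fat body median was 538 CPM, against 290 CPM in P21. Of the opsins, Uvop had 447 CPM in the P21 tubule pool and 421 to 910 CPM in the other tubule pools. Lop1 had 399 CPM in the P21 tubule pool and at most 2.76 CPM in the other tubule pools. The list of CYP9Q1 and CYP9Q2 stood at 395%. Shares of single transcripts and of summed lists are unlike measures, so their ranges were not compared. The origin of this RNA in the tubule pool was not tested.

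The genes nearest to each tested gene in pattern were taken as the 3 with the highest correlation over the 18 libraries. Obp18 was closest to LOC725997 (r = 0.981), LOC724717 (0.973) and LOC724418 (0.973). Obp14 was closest to LOC727110 (0.977), LOC107963970 (0.976) and LOC100577725 (0.976). For Obp17 the nearest were LOC724418 (0.908), LOC107965317 (0.901) and LOC552130 (0.887). For Obp21 they were LOC107965317 (0.902), LOC727165 (0.886) and Apd-1 (0.883), which encodes an apidermin, a protein of the cuticle. For Obp13 they were LOC411140 (0.885), LOC100576152 (0.885) and LOC107965037 (0.881). After subtraction of the tissue means, Obp21 was nearest to CSP1 (0.926), a chemosensory protein gene, and Apd-1 (0.914), and Obp13 had Hex110, another hexamerin gene, among its 3 nearest (0.785).

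Because Apd-1 appeared there, genes with symbols of apidermins and cuticular proteins were summed, a list of 22 genes chosen after its values were seen. The sum was 243 and 341 CPM in the P11 and P21 brain pools, against 61.9 to 95.3 CPM in the others. In the tubules it was 560 CPM in P11 and 168 CPM in P21, with the other 4 between 33.1 and 115 CPM. In the ventriculus it was 232 CPM in P11, against 47.0 to 83.8 CPM in the other 5, P21 included. Of the 22 genes, 7 were highest in P11 in the ventriculus, and CPR22 (90.6 CPM), CPR14 (64.4 CPM), Apd-1 (18.0 CPM) and CPR28 (17.6 CPM) made up most of the P11 sum, while CPR4 was lowest there (16.3 CPM). The sum was thus high through a few genes in the pool in which Obp15, Obp16, Obp19 and Obp21 had their only ventriculus level above 2 CPM. Whether cuticle or tissue beneath it contributed to these levels was not tested.

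Between tissues the 5 tested genes were compared in 1 fit of the 18 libraries with edgeR's quasi-likelihood test, and a transcript was called at a Benjamini-Hochberg adjusted p under 0.05 over 10209 transcripts. The 3 comparisons share tissues, and in bulk tissue fewer cells of a type and less RNA per cell cannot be told apart. Between the brain and the ventriculus, 2 of the 5 were called, Obp18 as higher and Obp13 as lower in the brain. Of all tested transcripts, 77.4% were called, 44.2% as higher and 33.3% as lower in the brain, so the share among the cluster's genes was below the background. Obp13 averaged 0.0819 ± 0.127 CPM in the brain and 1.02 ± 0.516 CPM in the ventriculus (SD, n = 6 each), a log2 fold change of −3.75 ± 0.93 (SE, adjusted p = 0.00142). Its brain and ventriculus pools did not overlap, which held for 61% of tested transcripts. For Obp13 this was by a margin within counting error, 0.330 CPM from 18 counts against 0.360 CPM from 12 counts. Obp18 averaged 17.1 ± 26.2 CPM in the brain and 0.230 ± 0.411 CPM in the ventriculus (SD, n = 6 each), a log2 fold change of 6.21 ± 2.15 (SE, adjusted p = 0.0142 by edgeR). The CPM was higher in the brain in 6 of 6 patrilines, although the pools overlapped. In P1 this rested on 2 brain counts (0.0218 CPM) against 0 counts in the ventriculus, where the limit was 0.0675 CPM, so P1 gave no direction. Without the brain pools of P11 and P21, the difference of Obp18 was −0.16 ± 1.72 (SE, adjusted p = 0.935) and its call ended.

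Obp14, Obp17 and Obp21 were not called between the brain and the ventriculus, with log2 fold changes of −1.18 ± 1.06 (adjusted p = 0.318), 1.80 ± 1.36 (0.234) and 0.17 ± 1.73 (0.931) by edgeR. Their values turned on the P11 and P21 brain pools. These are the highest brain pools of the 3 genes and were chosen with that known, so the values without them show how far the result depends on them and do not support a lower level in the brain. Without those 2 libraries the log2 fold change was −4.02 ± 1.14 for Obp14 (adjusted p = 0.00457), −3.71 ± 1.21 for Obp17 (0.0109) and −4.78 ± 2.15 for Obp21 (0.0532). Without all 6 libraries of P11 and P21, an alternative added after the data were seen, Obp14 was at −3.76 ± 0.85 (0.00133) and Obp17 at −3.0 ± 0.62 (0.000703), whereas Obp21 was at −0.13 ± 1.09 (0.919). Without the P11 patriline alone, Obp21 was called as higher in the brain, at 4.56 ± 1.91 (0.0414). The same limit holds for this choice. Obp13 remained called without these 6 libraries, at −5.88 ± 1.08 (0.000275).

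Between the brain and the Malpighian tubules 1 of the 5 was called, Obp13 as lower in the brain, against 75% of all tested transcripts, 40.5% as higher and 34.5% as lower. Obp13 averaged 0.0819 ± 0.127 CPM in the brain and 0.344 ± 0.392 CPM in the tubules (SD, n = 6 each), a log2 fold change of −2.18 ± 0.93 (SE, adjusted p = 0.0427 by edgeR). Leaving out 1 patriline at a time gave adjusted p between 0.0185 and 0.152 for Obp13, and its call was lost without P7, P8, P21 or P24. The pools of 0 of the 5 genes were without overlap between these tissues, against 55.9% of tested transcripts. Obp14 averaged 12.2 ± 16.2 CPM in the brain and 56.7 ± 66.3 CPM in the tubules (SD, n = 6 each), a log2 fold change of −2.22 ± 1.10 (SE, adjusted p = 0.0754 by edgeR). With the patriline as a replicate block, it was −3.01 ± 1.26 (0.0442), and without the brain pools of P11 and P21 it was −5.11 ± 1.21 (0.00125). Without the P21 patriline it was −3.06 (0.0259), also a call. Obp18 had the higher CPM in the brain in 6 of 6 patrilines, although P1 had 2 brain counts against 0 in the tubules and gave no direction. Its log2 fold change was 2.76 ± 1.76 (adjusted p = 0.164 by edgeR). It was called with the replicate block at 2.78 ± 0.74 (0.00422) and without P21 at 5.12 (0.0307). Without the P11 and P21 brain pools it turned to −3.62 ± 1.76 (0.0745). Obp17, at 1.64 ± 1.35 (0.279), and Obp21, at 1.38 ± 1.76 (0.486), also turned without these pools. Obp17 went to −3.90 ± 1.22 (0.0088) and Obp21 to −3.61 ± 2.02 (0.118). This choice left out the highest brain pools of Obp14, Obp17, Obp18 and Obp21 and kept the P11 and P21 tubule pools. Its values show how far the result depends on those brain pools and do not support a lower level in the brain.

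Between the Malpighian tubules and the ventriculus 0 of the 5 were called by edgeR, and 0 by DESeq2, against 59.3% of all tested transcripts, 32.8% as higher and 26.5% as lower. At an unadjusted p under 0.05 the edgeR count was also 0. Pools did not overlap for 0 of the 5, against 37.1% of tested transcripts. Obp13 averaged 0.344 ± 0.392 CPM in the tubules and 1.02 ± 0.516 CPM in the ventriculus (SD, n = 6 each) and was lower in the tubules in 6 of 6 patrilines, at a log2 fold change of −1.57 ± 0.82 (adjusted p = 0.106 by edgeR). With the replicate block it was called, at −2.16 ± 0.75 (0.0253), as it was without P11, at −2.14 (0.0283). Obp18 stood at 3.44 ± 1.96 (0.138) and was called with the replicate block, at 2.64 ± 1.06 (0.0488). Obp14 stood at 1.04 ± 1.06 (0.409), Obp17 at 0.16 ± 1.33 (0.922) and Obp21 at −1.21 ± 1.75 (0.568). Obp21 turned to 3.33 ± 1.82 (0.133) without P11, whose ventriculus pool held 97.0% of the summed CPM of that tissue. Obp17 turned to −0.80 ± 1.46 (0.659) without P21, and without all 6 libraries of P11 and P21 it stood at −1.72 ± 0.59 (0.0257).

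**Figure D4:**
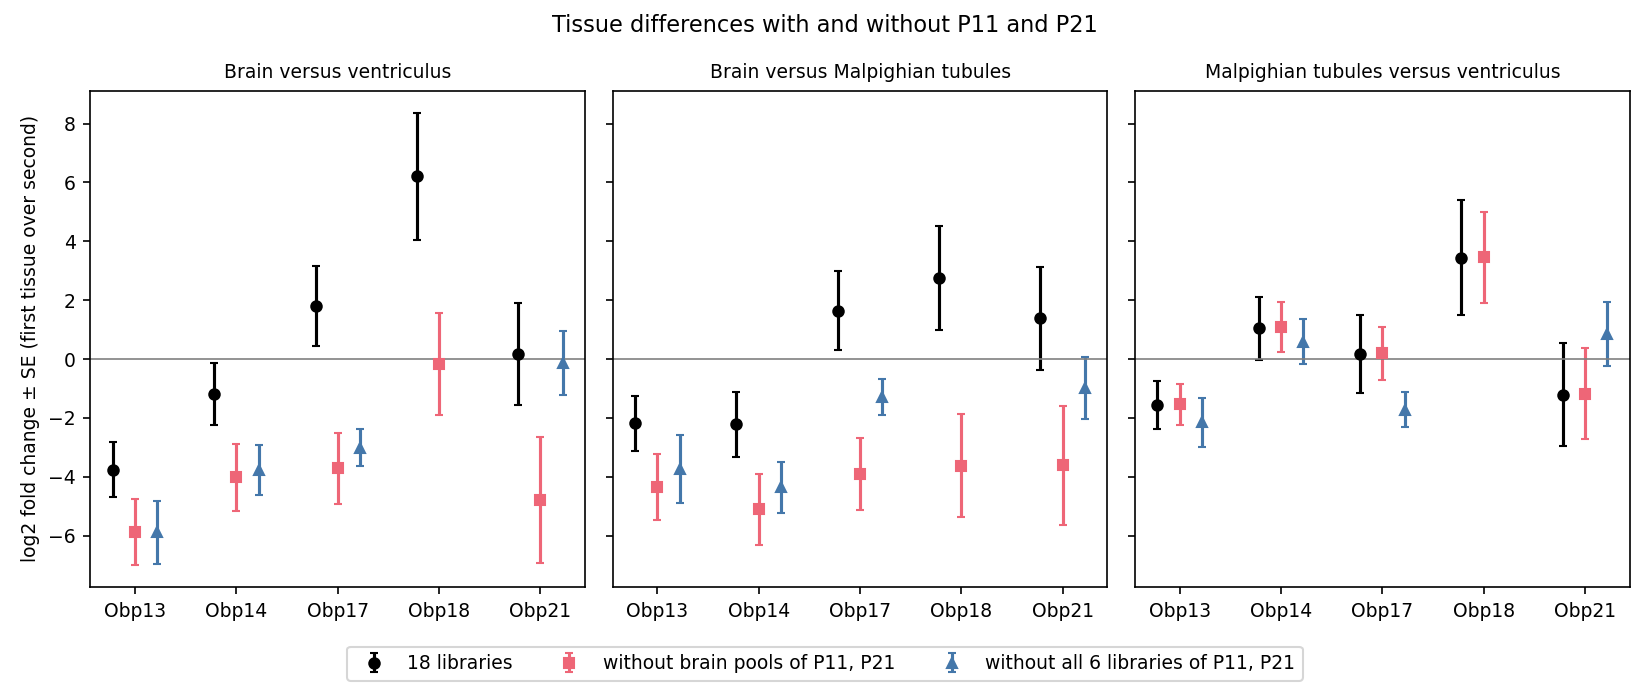
Log2 fold changes with their SE for the 5 tested genes in the 3 tissue comparisons, first-named tissue over second, from all 18 libraries (black), without the brain pools of P11 and P21 (red) and without all 6 libraries of P11 and P21 (blue, in which Obp18 did not pass the filter). Obp13 stays below 0 in each, whereas Obp17, Obp18 and Obp21 cross 0 between brain and the other tissues. Obp17 and Obp21 also cross 0 between tubules and ventriculus.

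The other odorant-binding proteins of the bee, taken as a fixed list of Obp1 to Obp12, included genes that differed between tissues. Of the 12 symbols 11 matched, with 23 transcripts, of which 9 were tested. Between the brain and the ventriculus their median log2 fold change was 2.49, against 0.23 over all tested transcripts. Of the 9, 7 were called as higher and 1 as lower in the brain, against 44.2% and 33.3% of all tested transcripts. At 4-fold or more these were Obp4 (6.03), Obp10 (3.68 and 3.33 for its transcripts), Obp5 (3.28), Obp2 (2.49) and Obp1 (2.06), an antennal protein that binds queen pheromone, as higher, and Obp9 (−2.07) as lower, against 22.2% of all tested transcripts as higher and 9.87% as lower. Between the brain and the tubules 7 were called as higher and 0 as lower, against 40.5% and 34.5% of all tested transcripts. At 4-fold or more these were Obp4 (3.74), Obp1 (3.28), Obp10 (2.5) and Obp2 (2.17), against 17% of all tested transcripts as higher and 9.65% as lower. Between the tubules and the ventriculus 3 of the 9 were called as higher and 2 as lower, near the 32.8% and 26.5% of all tested transcripts. At 4-fold or more Obp4 (2.29) and Obp10 (2.00) were higher and Obp9 (−2.03) lower, against 12% and 6.03% of all tested transcripts. Some of these calls rested on few counts over the 6 pools of a tissue. In the ventriculus the Obp10 transcript at 3.68 had 9 counts, Obp2 had 10 and Obp5 had 12, and in the tubules Obp2 had 19. Obp4 had 48.9 to 112 CPM in the brain pools. In the tubules Obp4 had 23.6 CPM in P21 and 0.628 to 3.99 CPM in the others, and in the ventriculus it had 4.18 CPM in P11 and 0.173 to 1.06 CPM in the others. Its highest tubule and ventriculus pools were therefore those of Obp15, Obp16 and Obp18. Whether the lists differed from the cluster was not tested.

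The chemosensory proteins, another family of small soluble carriers, were listed as CSP1 to CSP6, of which 5 matched, with 7 transcripts, 5 of them tested. Between the brain and the ventriculus 3 were called as higher in the brain, at log2 fold changes of 4.22 (CSP1), 3.74 (CSP6) and 2.11 (CSP2), and 0 as lower, against 44.2% and 33.3% of all tested transcripts. Between the brain and the tubules CSP1 (4.20) and CSP6 (3.02) were called as higher and 0 as lower, against 40.5% and 34.5%. Between the tubules and the ventriculus 2 were called as higher, CSP2 (1.87) and CSP6 (0.73), and 0 as lower, against 32.8% and 26.5%. CSP1 shared the pool pattern of the cluster. It had 377 and 654 CPM in the P11 and P21 brain pools, against 5.34 to 29.9 CPM in the others. In the tubules it had 46.8 CPM in P21 and at most 5.12 CPM elsewhere, and in the ventriculus 54.4 CPM in P11 and at most 1.65 CPM elsewhere. The high pools of CSP1 were thus those of Obp18 in the brain and tubules and of Obp15, Obp16, Obp19 and Obp21 in the ventriculus.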

How the data were processed

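RNA of 18 pools was sequenced by the authors from a stranded total RNA library kit. Reads were trimmed (Trimmomatic), aligned (STAR) and counted (HTSeq) by the authors. The deposited values are raw counts per transcript, without normalization. Tool versions and HTSeq's strand setting were not given in the sources used here, so overlapping and antisense genes could share reads. The paper names Amel_4.5 as its genome, whereas 27887 of the 28396 features matched a RefSeq table of a later assembly, with 41 more named by gene only and 468 kept under their own names. No coordinates are therefore given. HTSeq's classes of uncounted fragments were kept out of library sizes and fits: ambiguous fragments were 30.9% to 50.3%, those on no feature 6.26% to 17.6% and those aligned to several places 1.47% to 2.76%. Near-identical genes and transcripts lose shared fragments to these classes.

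From the deposited counts, transcripts were kept with edgeR's filterByExpr (minimum count 10, minimum total 15), scaled with TMM factors (1.19 to 1.78 in the brain, 1.08 to 1.34 in the tubules and 0.472 to 0.613 in the ventriculus) and tested with glmQLFit and glmQLFTest, tissue being the only term, with Benjamini-Hochberg adjustment and a threshold of 0.05. A second rule also asked for a log2 fold change of at least 2. R 4.3.3, edgeR 4.0.16, limma 3.58.1 and DESeq2 1.42.0 were used, and the tests were tested on simulated data. Pearson correlations used log2(CPM + 1). The SE was derived from the fold change and its test statistic. Pools of 1 tissue differed from each other beyond counting error, so the number of pools limits the precision.

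The 3 tissues of each patriline were dissected from the same workers, so the libraries are paired. Deviations from tissue means correlated between −0.15 and 0.49 over 18 pairs of libraries, above 0.1 in 15. The replicate block was run as an alternative, beside other scalings, no filter, DESeq2, fits of only the tissues compared, sums per gene and fits without single patrilines or the P11 and P21 pools. The text names all transcripts of Obp13 to Obp21, members of Obp1 to Obp12 and CSP1 to CSP6 called at 4-fold, and the 3 genes nearest in pattern. CSP2 and CSP6 between the tubules and the ventriculus, and further neighbours in pattern, were named after their values were seen. Members, lists and markers were chosen with earlier results of these data known. CYP9Q1 and CYP9Q2 were found by the accessions in the paper's methods.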

Additional observations from a re-analysis of the deposited data

Results flagged for a closer look

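In 14 of 27 combinations of transcript and tissue, 1 pool lay so far from the other 5 that its gap to the nearest pool, divided by the whole range, passed Dixon's critical value for 6 samples. The rule flags about 1 in 20 groups of normally distributed values. CPM was taken here without logs, cannot fall below 0 and lay near 0 in many pools, so that rate does not hold. For transcripts with several pools near 0, a low pool could hardly be flagged. Transcripts of 1 library are also not independent. In 14 of these 14 the pool was the highest, and it was P11 or P21. In the brain these were Obp13 in P11 (0.330 CPM) and Obp15 in P21 (0.989 CPM). In the tubules they were Obp14 in P11 (184 CPM), and in P21 Obp15 (2.69 CPM), Obp16 (6.29 CPM), Obp18 (13.5 CPM) and the first transcript of Obp19 (2.59 CPM). In the ventriculus 7 transcripts stood out, all in P11. They were Obp15 (143.9 CPM), Obp16 (14.5 CPM), Obp17 (9.19 CPM), Obp18 (1.05 CPM), the transcripts of Obp19 (26.5 and 0.332 CPM) and Obp21 (87.5 CPM). In the brain the rule for a single distant pool did not pick out Obp14, Obp16, Obp17, Obp18, Obp19 or Obp21, where P11 and P21 were high together.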

How the results depend on the processing

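Of the 220 log2 fold changes recomputed for the 5 tested genes, 181 kept direction and side of the threshold, 15 gained a call, 5 lost one and 19 changed sign. The cause of these changes was not tested. Obp13 between brain and ventriculus stayed called in all 15 settings (−5.88 to −2.34). With the replicate block, Obp17 was −1.06 between brain and ventriculus and −1.37 between tubules and ventriculus, Obp21 was 0.58 there, and 3 genes were called between brain and tubules and 2 between tubules and ventriculus; the block changed no call beyond those given with the results. With library size only, Obp14 was 0.063 between brain and ventriculus, 0 genes were called between brain and tubules and 1 between tubules and ventriculus. That scaling moved the median of all tested transcripts from 0.23 to 1.79 between brain and ventriculus, and the share of calls that were higher from 57.0% to 89.5% there, from 54.0% to 69.2% between brain and tubules and from 55.4% to 92.1% between tubules and ventriculus. DESeq2 called 2 genes between brain and tubules. A fit of those tissues alone called 0, but Obp13 did not pass the filter there and was not tested in it. Without the brain pools of P11 and P21, Obp21, Obp17 and Obp18 were −4.78, −3.71 and −0.16 between brain and ventriculus and −3.61, −3.90 and −3.62 between brain and tubules, where 3 were called. Without the 6 libraries of these patrilines, Obp21 was −0.13, −0.98 and 0.85 and Obp17 was −3.0, −1.29 and −1.72 in the 3 comparisons, with 2 called in each comparison of the tubules. Leaving out 1 patriline at a time gave 0 to 2 calls between brain and tubules and 0 to 1 between tubules and ventriculus. Obp21 then ranged between −1.16 and 4.56 between brain and ventriculus, with a call without P11 (adjusted p = 0.0414 by edgeR), and between −2.45 and 3.33 between tubules and ventriculus. Obp17 ranged between −0.80 and 0.60 between tubules and ventriculus. The counts of all transcripts called stayed within 1.5 times in 45 of 45 settings. Depth limits Obp13 in the brain, with 29 counts over 6 pools, and Obp18 in the ventriculus, with 49.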
